A study of Mus musculus with 2 samples.

Results

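The genes described here are 40 heart muscle genes, measured in lung of the mouse embryo. They are a list of symbols of sarcomere, calcium handling, natriuretic peptide and cardiac regulator genes, and all 40 were found among the 43346 mouse genes of the deposited tables. The genes were chosen by their counts in the 2 libraries of the study, because sarcomere genes differed between them, so that difference is described here with no test. By role the list holds 8 thick filament genes, 6 thin filament genes, 7 genes of titin, the Z-disc and the M-band, 9 calcium handling genes, 2 natriuretic peptide genes, 6 regulators, 1 pacemaker channel and 1 creatine kinase.

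The study sequenced total RNA from lung of B6NCrl mouse embryos at 14.5 days, with no treatment and no engineered allele named in the labels. It holds 1 group of 2 libraries, numbered as biological replicates 1 and 2 and collected on different days. Each started from 10.0 ng of RNA extracted with the Ambion mirVana kit, with spike-in RNA added, and 1 linked protocol carries the name of Smart-seq, a method for full-length cDNA from little RNA. The labels call each sample both pooled male and female and a single lung of 1 pup, so how many animals stand behind a library is uncertain.

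Heart muscle contracts through the sarcomere, in which myosin thick filaments pull on actin thin filaments. Troponin on the thin filament opens the actin sites when calcium is released from the sarcoplasmic reticulum, and a calcium pump then takes the calcium back. In mice, a sleeve of atrial-type heart muscle runs along the pulmonary veins from the left atrium into the lung, so whole lung can hold heart muscle RNA. In whole tissue, fewer cells of a type and less RNA per cell cannot be told apart, and these data do not show which cells the RNA came from.

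Promoter sequences of 7 members are printed here because they stand for the different outcomes: Myl7, Myh6 and Nppa were far higher in replicate 1, Actc1 remained abundant in both libraries, Myh7 and Smpx were nearly level, and Nppb had no count. Each is the RefSeq window on GRCm38.p6 from 250 bases before to 50 after the annotated start, 300 bases in all, written 5′ to 3′ on the gene's strand. The windows are chr11:5898733-5899032 on the minus strand for Myl7, chr14:54966558-54966857 on the minus strand for Myh6, chr14:54994577-54994876 on the minus strand for Myh7, chr4:148000472-148000771 on the plus strand for Nppa, chr4:147985650-147985949 on the plus strand for Nppb, chr2:114052826-114053125 on the minus strand for Actc1, and chrX:157698723-157699022 on the plus strand for Smpx. Capitals mark matches to 7 motifs searched on both strands: TATAAA for the TATA box, AGATAA for the site of GATA factors, CATTCC for the M-CAT element that TEAD factors bind, AGGTGT for a T-box half-site, TNAAGTG for an NKX2-5 site, the CArG box bound by serum response factor, and the MEF2 site.
Myl7: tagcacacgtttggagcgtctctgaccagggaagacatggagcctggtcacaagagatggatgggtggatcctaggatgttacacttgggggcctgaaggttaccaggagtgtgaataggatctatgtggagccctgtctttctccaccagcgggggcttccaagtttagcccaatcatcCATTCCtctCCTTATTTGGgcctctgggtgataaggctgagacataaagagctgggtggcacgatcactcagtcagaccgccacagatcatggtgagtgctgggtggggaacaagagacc
Myh6: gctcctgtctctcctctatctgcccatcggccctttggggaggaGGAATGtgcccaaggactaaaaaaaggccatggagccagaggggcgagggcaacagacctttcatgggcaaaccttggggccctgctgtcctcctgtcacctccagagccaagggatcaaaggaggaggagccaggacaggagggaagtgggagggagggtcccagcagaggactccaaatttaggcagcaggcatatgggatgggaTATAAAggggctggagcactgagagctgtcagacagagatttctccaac
Myh7: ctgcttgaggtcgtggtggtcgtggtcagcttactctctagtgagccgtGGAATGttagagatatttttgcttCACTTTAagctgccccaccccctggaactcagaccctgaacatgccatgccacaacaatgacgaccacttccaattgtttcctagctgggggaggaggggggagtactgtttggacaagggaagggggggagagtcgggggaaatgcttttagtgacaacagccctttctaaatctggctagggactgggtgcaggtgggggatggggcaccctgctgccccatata
Nppa: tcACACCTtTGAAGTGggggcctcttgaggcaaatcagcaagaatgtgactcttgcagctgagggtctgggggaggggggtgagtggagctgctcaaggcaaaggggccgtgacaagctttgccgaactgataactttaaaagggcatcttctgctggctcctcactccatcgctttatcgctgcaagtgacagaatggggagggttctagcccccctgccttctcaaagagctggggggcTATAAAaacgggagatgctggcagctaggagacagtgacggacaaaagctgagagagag
Nppb: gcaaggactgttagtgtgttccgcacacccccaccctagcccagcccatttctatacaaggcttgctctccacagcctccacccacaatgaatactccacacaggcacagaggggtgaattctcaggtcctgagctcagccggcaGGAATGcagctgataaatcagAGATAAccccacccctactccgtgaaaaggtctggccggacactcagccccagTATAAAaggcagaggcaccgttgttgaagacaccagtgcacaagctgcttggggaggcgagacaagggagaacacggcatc
Actc1: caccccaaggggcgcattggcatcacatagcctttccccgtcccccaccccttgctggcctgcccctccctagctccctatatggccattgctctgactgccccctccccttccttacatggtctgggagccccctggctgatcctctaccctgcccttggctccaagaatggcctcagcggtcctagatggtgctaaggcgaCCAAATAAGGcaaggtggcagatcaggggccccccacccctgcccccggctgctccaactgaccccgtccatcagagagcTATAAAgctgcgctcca
Smpx: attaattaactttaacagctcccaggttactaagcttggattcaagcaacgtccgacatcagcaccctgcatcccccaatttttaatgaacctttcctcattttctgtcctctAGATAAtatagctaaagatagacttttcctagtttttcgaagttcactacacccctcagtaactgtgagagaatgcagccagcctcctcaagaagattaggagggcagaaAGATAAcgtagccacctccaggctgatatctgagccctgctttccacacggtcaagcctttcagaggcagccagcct

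The Myl7 window held an M-CAT match beginning 70 bases before the start and a CArG box beginning 61 bases before it. The Actc1 window also held a CArG box, 47 bases before the start, and a TATA match beginning 33 bases after it. The Myh6 and Myh7 windows shared an M-CAT match, at 206 and 201 bases before their starts, and differed in that Myh6 had a TATA match beginning 1 base after the start and Myh7 an NKX2-5 site 177 bases before its start. Nppa held a T-box half-site, an NKX2-5 site and a TATA box, and its neighbour Nppb an M-CAT match, a GATA site and a TATA box. Smpx held 2 GATA matches and none of the other motifs. The RefSeq start lay 320 bases from the GENCODE start for Myh6, 673 for Actc1, 112 for Nppb and 63 for Smpx, and at the GENCODE start for the other 3, so the positions hold for the RefSeq start alone.

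A RefSeq window was found for 32 of the 40 members, 38 windows in all, and 11 of these 38 held none of the 7 motifs. The CArG box was in 13.2% of member windows and in 1.63% of all 32851 windows of this length, and the members with it were Acta1, Actc1, Myl3, Myl7 and Myom1. The M-CAT element was in 26.3% of member windows against 14.7% of all, the TATA box in 23.7% against 13.6%, and the GATA site in 18.4% against 11.2%. The MEF2 site was in 7.89% against 3.19% (Casq2, Mybpc3 and Ttn), the T-box half-site in 15.8% against 13.7%, and the NKX2-5 site in 7.89% against 11.5%. No 2 matches overlapped in a member window. These are matches of letters, given with no test, and they show neither binding nor its absence.

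The libraries held 33601136 (replicate 1) and 34535168 (replicate 2) expected counts, with 31940637 and 33167255 of them on mouse genes. The expected count is the deposited estimate of reads per gene, and TPM is the deposited abundance per length. The tissue label held in both libraries, where the 8 lung epithelium and mesenchyme genes summed to 2956 and 3026 TPM. Sftpc, the surfactant protein C gene, had 2126.93 and 2183.57 TPM. Beyond the heart muscle genes the libraries also stood apart in sex-linked genes: 4 genes of the Y chromosome (Uty, Kdm5d, Ddx3y and Eif2s3y) had 113 TPM together in replicate 1 and 0.05 in replicate 2, and Xist, the X-inactivation RNA, had 0.07 and 70.11 TPM. By these genes replicate 1 read as male and replicate 2 as female, unlike the pooled male and female of the labels. They do not give the number of animals. Day of collection, sex-linked RNA and the heart muscle genes all differed between the same 2 libraries, so their parts cannot be told apart.

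Summed over all 40 members, the level came to 921.5 TPM in replicate 1, 240.2 in replicate 2, or 0.0924% and 0.0318% of the mouse gene counts. Ratios were taken from scaled counts, and no member was at least 2-fold higher in replicate 2. Of the 28 members with a mean TPM of 1 or more, 20 were at least 2-fold lower in replicate 2, beside 1.47% of the 14870 genes at that level (1.12% were at least 2-fold higher). This filter keeps some members only through their level in replicate 1. With a mean count of at least 50 as the filter in its place, added after seeing the data, 19 of 28 members were at least 2-fold lower, beside 0.521% of 13817 genes (0.181% higher). That filter, too, keeps some members only through replicate 1, such as Nppa with 234 and 0 counts. With no filter, 39 members had more than 3 counts in either library and 26 of them were at least 2-fold lower, beside 5.64% of 20242 genes (4.94% higher). Nothing is read from these shares, because the same contrast chose the list. The median log2 ratio of the 28 members was -2.93, and that of all 14870 genes was -0.002.

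**Figure D1:**
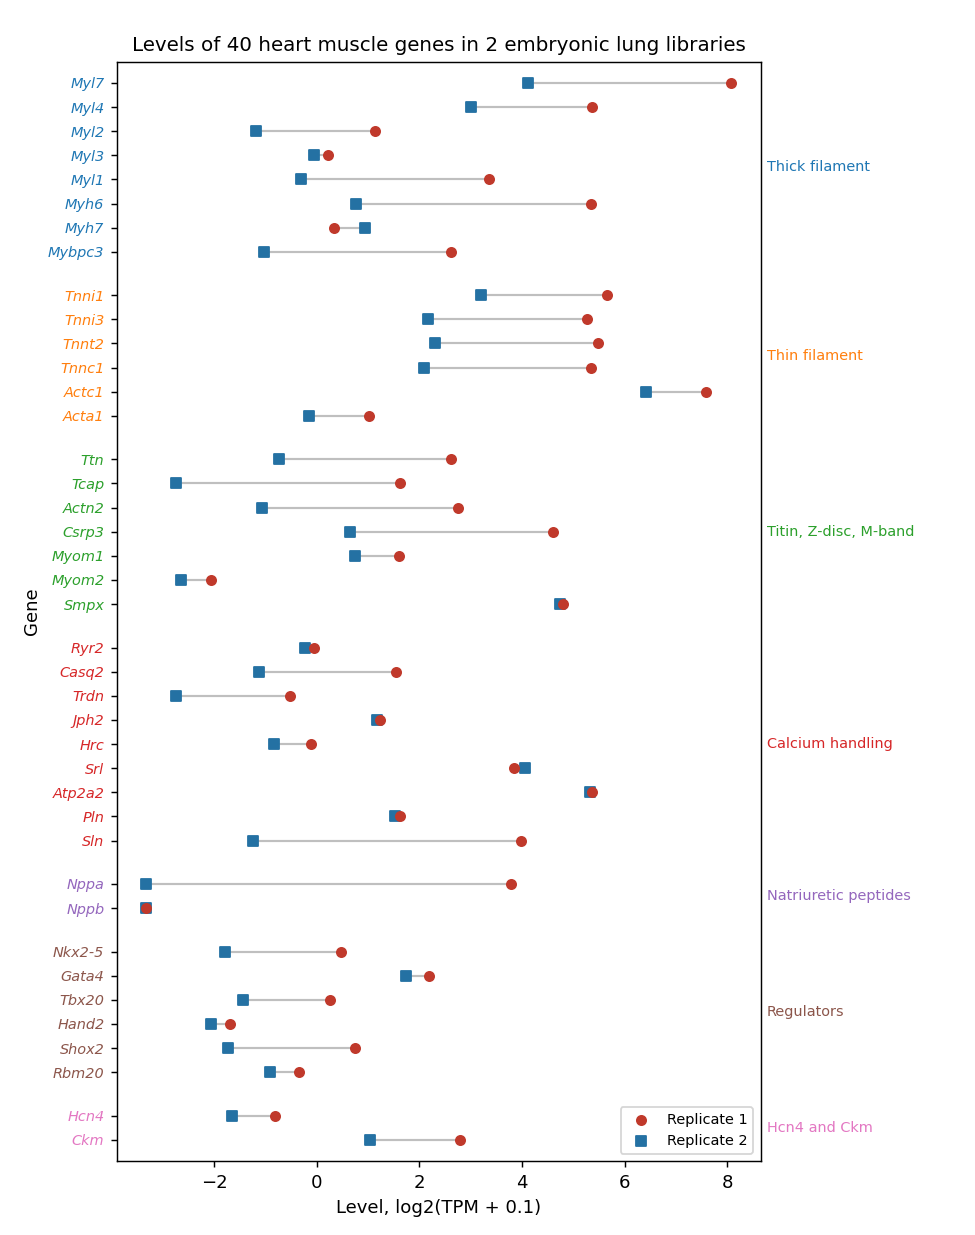
Level of each of the 40 members in both libraries on a log axis, log2(TPM + 0.1), with members in groups by role and 1 point for each library. Most thick and thin filament genes sit far apart between the libraries, with Myl3 and Myh7 the closest of them, Smpx, Srl and Atp2a2 nearly coincide, and Nppb had no count in either library.

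Of the 3 sarcomere groups, the thick filament genes had the widest gap in summed level, 372.3 TPM in replicate 1 against 30.94 in replicate 2. At least 2-fold lower in replicate 2 were 6 of the 7 with a mean TPM of 1 or more. Myl7, the atrial regulatory light chain of myosin (chromosome 11, 5896637 to 5898782), had the highest level of any member in replicate 1. Its count was 2955 in replicate 1 and 190 in replicate 2, with levels of 269.87 and 17.29 TPM. That was 16.2-fold lower in replicate 2, with an exact 95% interval of 14.0 to 18.9 that, like all intervals here, covers counting error only. Myl4, the atrial essential light chain, had counts of 704 and 123 and levels of 41.34 and 7.93 TPM, or 5.96-fold lower. It was thus closer between the libraries than its partner Myl7.

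The heavy chains parted. Myh6, the alpha heavy chain of atrial and adult mouse ventricular muscle (chromosome 14, 54941921 to 54966927), had counts of 4788.17 and 213.17, with 40.62 and 1.59 TPM. It was 23.4-fold lower in replicate 2, with an interval of 20.5 to 27.1. Myh7, the beta heavy chain of fetal ventricle and slow skeletal muscle, lies 3.76 kb from Myh6 on the same strand. Its counts were 154.83 and 164.83, its levels 1.16 and 1.83 TPM, and its fold 0.981 with an interval of 0.783 to 1.23. Myh6 was therefore 97.2% of the TPM of this pair in replicate 1 and 46.5% in replicate 2. The share in replicate 2 rests in part on short Myh7 models with few counts. Myh7-201, of 6139 nt, had 159.39 of the 164.83 counts there but 64.28% of the gene's TPM. By counts Myh6 was the larger of the pair in both libraries. The 2 genes share some reads, but the posterior SD of the count was under 5 for each in both libraries.

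Mybpc3, cardiac myosin binding protein C, had counts of 544 and 35 and was 16.0-fold lower in replicate 2. Myl1, an essential light chain of fast skeletal muscle, had counts of 151 and 13 and levels of 10.18 and 0.71 TPM. The ventricular light chains were scarce in both libraries. Myl2, the ventricular regulatory light chain, had 15 and 3 counts, a ratio of 4.62 with a counting interval of 1.48 to 28.1. Myl3, the ventricular essential light chain, had 20 and 16 counts, and its interval of 0.643 to 2.69 spans 1. The atrial Myl7 was 99.2% and 98.1% of the TPM of Myl7 and Myl2 together, and Myl4 was 97.5% and 90.2% of Myl4 and Myl3, so the atrial form was the larger share in both libraries.

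All 6 thin filament genes were at least 2-fold lower in replicate 2, and their summed level was 366.4 and 108.5 TPM. Tnni3, the cardiac inhibitory troponin, had counts of 605 and 53 and levels of 38.31 and 4.37 TPM, or 11.8-fold lower. Tnni1, the slow skeletal form that the fetal heart uses, had counts of 1106 and 203 and levels of 50.11 and 9.07 TPM, or 5.68-fold lower. Tnni1 was 56.7% of the TPM of the pair in replicate 1 and 67.5% in replicate 2. That share rests in part on Tnni3-202, a retained intron model of 451 nt. It was 19.04% of the Tnni3 TPM in replicate 1 and, with 20.2 of the 53 counts, 58.73% in replicate 2. Tnnt2, the cardiac troponin that ties the complex to tropomyosin, had counts of 1048 and 112 and was 9.73-fold lower. Tnnc1, the calcium-binding troponin of heart and slow muscle, had counts of 561 and 57 and was 10.2-fold lower. The 3 cardiac troponin genes were thus close to each other in ratio, and Tnni1 was nearer to Myl4.

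The actins had smaller ratios than the troponins. Actc1, cardiac alpha actin (chromosome 2, 114047282 to 114053548), had counts of 5848 and 2623 and levels of 190.85 and 85.28 TPM. It was 2.33-fold lower in replicate 2, with an interval of 2.22 to 2.44. Actc1 was 23.6% of the summed sarcomere TPM in replicate 1 and 50.1% in replicate 2, while Myl7 was 33.3% and 10.2%. Acta1, skeletal alpha actin, had 57 and 24 counts and was 2.45-fold lower, with 1.92 and 0.80 TPM. With ratios from spike-in counts both actins came under 2-fold lower, as did Rbm20 and Hcn4 among the other members.

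Among the genes of titin, the Z-disc and the M-band, 4 of the 6 with a mean TPM of 1 or more were at least 2-fold lower. Actn2, the alpha-actinin that anchors actin at the Z-disc, had counts of 425 and 21 and was 20.7-fold lower. Csrp3, the muscle LIM protein, had counts of 432 and 26 and levels of 24.27 and 1.46 TPM, or 17.0-fold lower. Ttn, the spring that links the Z-disc to the M-band, had counts of 2109 and 190 and was 11.6-fold lower. Tcap, which caps titin at the Z-disc, had 56 counts and 1 count, a ratio of 39.3 whose counting interval ran from 10.1 to 2351. The upper end of that interval rests on the single count in replicate 2.

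The M-band genes and Smpx stood nearer to 1. Myom1, which crosslinks thick filaments at the M-band, had counts of 355 and 191 and was 1.94-fold lower, just inside the 2-fold limit. Myom2, its relative of adult and fast muscle, had 10 and 5 counts. Smpx, a small protein of the costamere, had counts of 522 and 493 and levels of 27.74 and 26.64 TPM, a fold of 1.11 with an interval of 0.976 to 1.25. Smpx was 3.43% of the summed sarcomere TPM in replicate 1 and 15.7% in replicate 2. Just outside the limit lay Rbm20 at 2.08-fold lower, and Myom2 at 1.99 lay just inside with Myom1.

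Across the 21 sarcomere genes the level summed to 809.6 TPM in replicate 1, against 170.1 in replicate 2, a mean of 489.8 ± 452.2 (SD, n = 2). At least 2-fold lower were 16 of the 19 with a mean TPM of 1 or more, and their median log2 ratio was -3.35. The 3 that were not were Myh7, Myom1 and Smpx. Only 12 of the 21 reached 1 TPM in replicate 2, against 20 in replicate 1.

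Calcium handling genes were mostly alike between the libraries, with summed levels of 81.61 and 63.53 TPM. At least 2-fold lower were 2 of the 6 with a mean TPM of 1 or more, beside 1.47% of all genes at that level. Without the level filter 3 of all 9 were, beside 5.64% of genes with more than 3 counts in either library. The median log2 ratio of the 6 was -0.14. The release side was mixed. Ryr2, the calcium release channel, had counts of 321 and 282 and a fold of 1.19. Casq2, which stores calcium beside that channel, had counts of 155 and 13 and was 12.0-fold lower. Trdn, triadin, which tethers Casq2 to the channel, had 59 and 5 counts and was 11.3-fold lower, with a level under 1 TPM in both libraries. Jph2, which holds the reticulum against the cell membrane, had counts of 205 and 198. Hrc, a calcium-binding protein of the reticulum, had 43 and 24 counts and was 1.85-fold lower.

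The uptake side was split in another way. Atp2a2, the SERCA2 pump, had counts of 3997 and 3916 and levels of 41.23 and 40.10 TPM, a fold of 1.07. Pln, phospholamban, which restrains this pump in ventricle and in smooth muscle, had counts of 151 and 141 and a fold of 1.12. Sln, sarcolipin, which restrains the pump in atrium and skeletal muscle, had counts of 146 and 3 and levels of 15.74 and 0.32 TPM. The ratio of Sln was 43.7, with a counting interval of 17.1 to 249. Sln was 84.1% of the TPM of Sln and Pln in replicate 1 and 10.3% in replicate 2. Srl, sarcalumenin, a calcium-binding protein of the reticulum lumen, had counts of 820 and 828 and a fold of 1.03.

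The direction of the nearly level members depended on the scaling. Taking the summed spike-in counts as the base moved every log2 ratio up by 0.34, the median of all genes included, and 6 members (Smpx, Ryr2, Jph2, Srl, Atp2a2 and Pln) then came out higher in replicate 2 instead of lower. No direction is given for these 6. With that base 14 of the 19 sarcomere members were at least 2-fold lower, in place of 16.

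Nppa, the atrial natriuretic peptide gene (chromosome 4, 148000722 to 148002079), had counts in 1 library only. It had 234 counts and 13.70 TPM in replicate 1 and 0 counts in replicate 2, at least 81.4-fold lower when the 0 is set to a floor of 3 counts. Nppb, the B-type natriuretic peptide gene, lies 13.5 kb away and had 0 counts in both. The floor of 3 counts equals 0.0939 CPM of the mouse gene total in replicate 1 and 0.0905 CPM in the other library, so no fold is given for Nppb.

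The 6 regulators were low, at 9.34 TPM in sum in replicate 1 and 4.45 TPM in replicate 2, and only Gata4 had a mean TPM of 1 or more. Gata4, a zinc finger factor of heart and of other embryonic organs, had counts of 267 and 213 and a fold of 1.31. Without the level filter, 4 of the 6 were at least 2-fold lower, beside 5.64% of all genes with more than 3 counts in either library. Nkx2-5, a homeobox factor of heart and pulmonary vein muscle, had 41 and 6 counts and was 6.67-fold lower, with an interval of 3.01 to 20.6. Shox2, a homeobox factor of the sinus venosus and pulmonary vein muscle, had 90 and 9 counts and was 9.95-fold lower. Tbx20, a T-box factor of the heart, had 156 and 28 counts and was 5.73-fold lower. Rbm20, which regulates splicing of titin, had 100 and 50 counts, and Hand2, a helix-loop-helix factor of heart and limb, had 9.77 and 6.82.

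Hcn4, the pacemaker channel, had 39 and 18 counts and was 2.23-fold lower, with an interval of 1.26 to 4.20. Ckm, the muscle creatine kinase that heart and skeletal muscle share, had 201.22 and 57.54 counts and was 3.60-fold lower, with 6.86 and 1.95 TPM.

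The transcript tables divide a gene's counts over its annotated transcripts, and the posterior SD says how firmly. For Atp2a2, the transcript with a coding sequence of 1044 amino acids, the length of the widely expressed SERCA2b pump, had 3008.57 counts (posterior SD 33.5) in replicate 1 and 3291.31 (31.7) in replicate 2. The transcript coding for 998 amino acids, the length of the heart and slow muscle pump SERCA2a, had 988.43 (33.3) and 624.69 (31.7). It was 25.5% of the gene's TPM in replicate 1 and 16.51% in replicate 2. The lower count of the 998 residue form thus lay inside a gene whose total was nearly level. Both models differ in length between the releases used for counting and for names, so the coding lengths are those of the newer release.

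Tnnt2 makes several isoforms by exon choice. Tnnt2-207 had 503.26 counts (posterior SD 46.6) in replicate 1 and 25.2 (10.2) in replicate 2, or 50.5% and 23.38% of the gene's TPM. Tnnt2-204 had 173.56 and 15.01 counts, Tnnt2-211 had 128.27 and 26.65, and Tnnt2-205 had 88.25 and 26.53. All 4 were lower in replicate 2, and the posterior SDs of 6.88 to 10.2 there leave the order among them unclear. For Myom1, Myom1-202 had 236.88 counts (42.3) and 158.81 (20.2), and Myom1-203 had 118.12 (43.9) and 32.19 (19.4). The Ryr2 counts were split evenly between its 2 transcripts in both libraries, so they carry no information on isoforms.

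Titin gave the longest models. Ttn-201, coding for 26886 amino acids, had 1141.11 counts in replicate 1 and 133.13 in replicate 2, and Ttn-205, coding for 33467, had 600.6 and 41.1. Ttn-215, a model of 2159 nt, had 154.13 counts in replicate 1, yet it was 55.28% of the gene's TPM there because TPM divides by length. The TPM of Ttn in replicate 1 thus rests in large part on a short model. In replicate 2 Ttn-215 had 4.68 counts and 20.3% of the gene's TPM, and Ttn-213, a model of 3406 nt, had 22.73%.

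**Figure D2:**
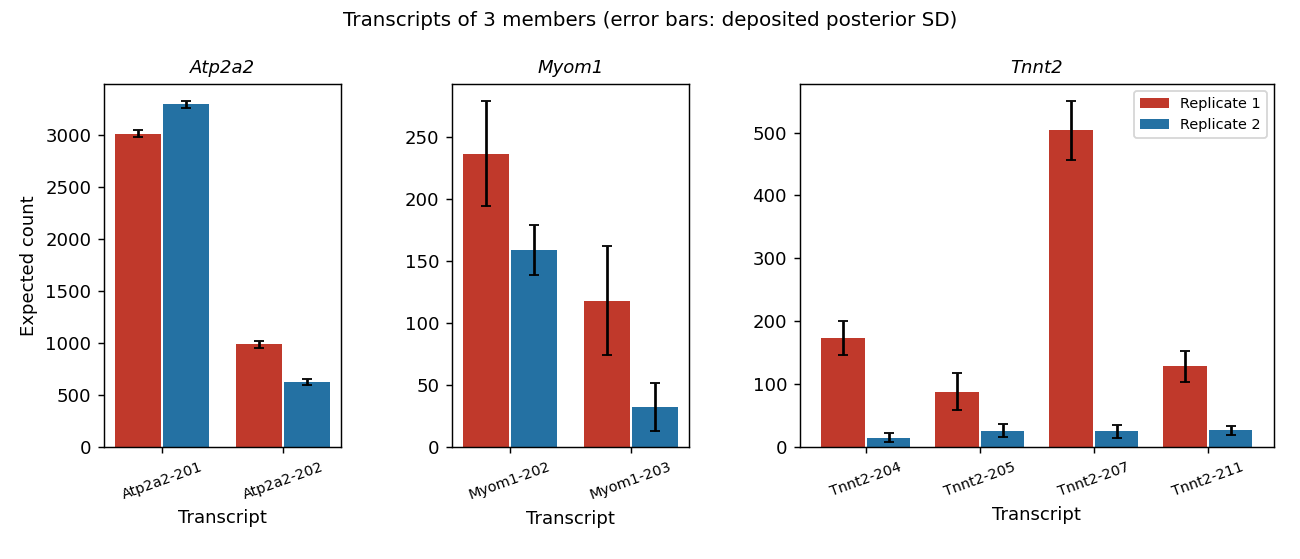
Expected counts of transcripts of members with several annotated forms in both libraries, with the deposited posterior SD as bars. The 1044 residue form of Atp2a2 has 3008.57 and 3291.31 counts, while its 998 residue form and the Tnnt2 forms have lower counts in replicate 2.

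Further muscle lists were read beside the 40 genes, each described by its count and median. Of 36 other sarcomere and chaperone genes, 17 had a mean TPM of 1 or more, with a median log2 ratio of -1.25. Of these 17, 10 were at least 2-fold lower and 0 higher, beside 1.47% and 1.12% of all genes at that level. The 10 were Ankrd1 (77 and 9 counts), Mybphl (97 and 16), Smyd1 (153 and 30), Popdc2 (187 and 37), Ldb3 (264 and 54), Hspb7 (149 and 39), Synpo2l (177 and 49), Tmod1 (265.98 and 109.86), Unc45b (340.87 and 148.73) and Tmod4 (32 and 15). Of the 10, only Tmod1 and Unc45b reached 1 TPM in replicate 2, so the level filter kept the others through replicate 1. With no level filter, 34 of the 36 had more than 3 counts in either library. Of these 22 were at least 2-fold lower and 0 higher, beside 5.64% and 4.94% of all genes. Mybphl is an atrial relative of myosin binding protein C, and Smyd1 and Unc45b help to fold and assemble myosin. The 3 highest of this list were Nebl at 36.47 and 34.25 TPM, Cryab at 35.51 and 23.90, and Fhl2 at 27.39 and 24.30, all inside 2-fold.

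Of 12 genes of muscle energy supply, 9 had a mean TPM of 1 or more, with a median of -0.82. Of these 9, 4 were at least 2-fold lower, beside 1.47% of all genes at that level. Fabp3, the heart fatty acid binding protein, had 349.52 and 53.44 counts and was 6.84-fold lower. Pgam2, the muscle phosphoglycerate mutase, had 254 and 22 counts and was 11.8-fold lower. Cox6a2, the heart and muscle form of a cytochrome oxidase subunit, had 75 and 3 counts, a ratio of 22.5 with a counting interval of 8.60 to 129. Cpt1b, the muscle carnitine palmitoyltransferase, had 111.77 and 27 counts. The level filter kept Cox6a2 and Cpt1b only through replicate 1, as they had 0.24 and 0.43 TPM in replicate 2. The glucose transporter Slc2a4 (11.64 and 15.20 TPM) and the enolase Eno3 (15.25 and 10.23 TPM) were inside 2-fold. With no level filter, 6 of the 12 were at least 2-fold lower and 1 higher, beside 5.64% and 4.94% of all genes with more than 3 counts. The higher one was Mb, myoglobin, with 6 and 21 counts, 3.17-fold higher in replicate 2.

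Ion channel and junction genes were listed next. Of 25 listed, 16 had a mean TPM of 1 or more and 0 of these were 2-fold apart, with a median of -0.01. With no level filter, 4 of the 25 were at least 2-fold lower and 1 higher, beside 5.64% and 4.94% of all genes. The lower ones were the atrial potassium channel genes Kcnj5 (77 and 26 counts) and Kcnj3 (28 and 3 counts), with Cacna2d2 (11 and 2) and Hcn2 (7 and 0). The higher one was Kcne1 (2 and 7 counts). The highest of the list were Gja1 (87.24 and 92.09 TPM), Asph (61.94 and 65.78 TPM) and Gjc1 (61.36 and 65.09 TPM). Of 24 other cardiac regulators, 20 had a mean TPM of 1 or more, with a median of 0.007. The highest regulators, Nr2f2 (75.41 and 79.38 TPM), Tbx2 (48.17 and 54.47 TPM) and Tbx3 (49.53 and 50.89 TPM), were nearly level. Of the genes tied to the ventricle, Irx4 had 0 counts in both and Hand1 had 0 and 2, while Hey2 had 57 and 97 and Myh7, above, was present in both libraries. Bmp10, a growth factor of trabecular and later of atrial muscle, had 0 counts in both.

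Markers of other cell types were read in the same way. Of 23 skeletal muscle genes, 6 had a mean TPM of 1 or more, with a median of -0.42. The 23 summed to 31.6 TPM in replicate 1 and 23.36 in replicate 2. Of the 6, 2 were at least 2-fold lower, Tnnt1 (177 and 83 counts) and Cav3 (40 and 12), beside 1.47% of all genes at that level. The other high genes were Mylpf (6.26 and 8.72 TPM) and Casq1 (4.71 and 4.15 TPM). With no level filter, 18 of the 23 had more than 3 counts in either library. Of these 5 were at least 2-fold lower and 3 at least 2-fold higher, beside 5.64% and 4.94% of all genes. The higher ones were Chrna1 (4 and 20 counts), Myh3 (6 and 18.59) and Myf5. The defining factors of skeletal muscle were near 0, with Myod1 at 0 and 3 counts, Myog at 0 and 1, Myf5 at 3 and 10, and Pax7 at 0 in both. All 17 smooth muscle genes were inside 2-fold, with a summed 2603 and 2573 TPM and a median of -0.04. Acta2 had 727.37 and 734.29 TPM, Tpm1 567.91 and 512.00, and Myl9 349.75 and 319.98.

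All 6 endocardium and endothelium genes (Cdh5, Emcn and Tie1 the highest) were inside 2-fold, at 193.2 and 198.8 TPM in sum and with a median of 0.028. Of 8 mesothelium and epicardium genes, 7 had a mean TPM of 1 or more, with 349.1 and 339.9 TPM in sum and a median of -0.20. Tcf21, Krt19 and Aldh1a2 were its highest, and Msln, mesothelin, was at least 2-fold lower with 134 and 56 counts. The lung list, led by Sftpc, Epcam and Tcf21, had a median of -0.04 with 0 of 8 genes 2-fold apart. The 7 hepatocyte genes had 4.55 and 10.43 TPM in sum, and 4 had a mean TPM of 1 or more. Of these 4, 3 were at least 2-fold higher in replicate 2, beside 1.12% of all genes at that level. They were Afp (72 and 161 counts), Apoa1 (13 and 34) and Apoa2 (10 and 25). The counting intervals of their log2 ratios began at 0.689, 0.365 and 0.151, so all reached under 2-fold. Apoa1, at 0.62 and 1.62 TPM, passed the level filter only through replicate 2. The part of the small skeletal muscle and hepatocyte differences, or of the sex-linked genes, in the heart muscle values was not tested.

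**Figure D3:**
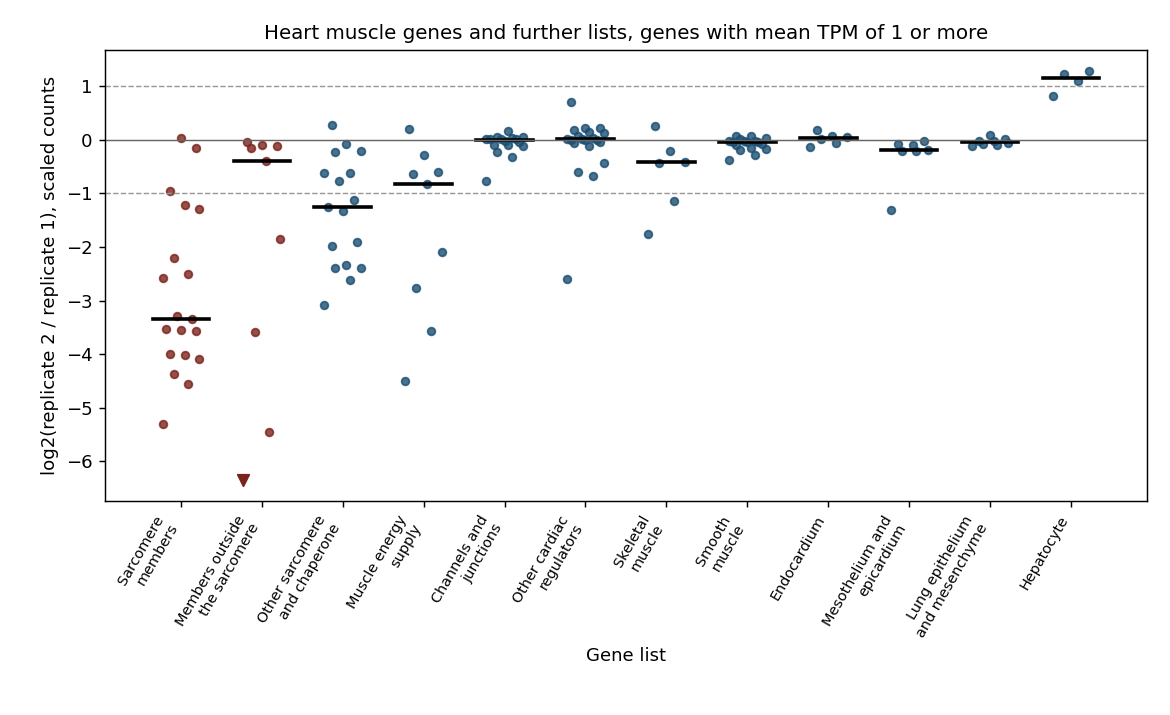
Log2 ratio of replicate 2 to replicate 1 for every gene with a mean TPM of 1 or more in each list, with a bar at the median and dashed lines at 2-fold. The triangle is Nppa at its bound. The sarcomere members have their median at -3.35, smooth muscle, endocardium, lung, channel and regulator lists sit near 0, and the hepatocyte genes lie above 0.

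Among 12502 protein-coding genes with a mean TPM of 1 or more, a mean count of at least 50 and a place off the Y chromosome, 25 were members, and 9 of the 10 lowest ratios belonged to them. Among the 20 lowest 14 were members, and among the 50 lowest 17. As with the shares above, nothing is read from this ranking, because the same contrast chose the list. Outside the list, the lowest ratios included those of Pgam2, Fabp3, Mybphl, Smyd1, Popdc2, Ldb3 and Cpt1b, which stand in the further muscle lists above. Of those in no list, S100a8 (214 and 38 counts) and S100a9 (102 and 14 counts) encode calprotectin of neutrophils, and Snap91, a clathrin coat assembly gene of neurons, had 176 and 44 counts. Gm14434 had 139.37 and 0 counts with a posterior SD of 86.2 and 66.4, so its reads are shared with other copies and its value is uncertain.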

How the data were processed

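For each library the authors deposited tables by gene and by transcript. Columns per the file headers are an expected count (estimated reads per feature), TPM (per length, scaled over all features, spike-ins included), posterior means, posterior SDs of the count and, for transcripts, the percent of the TPM of their gene. The deposited read-me names mm10 and GENCODE M4. Not given in the sources used here were aligner, quantifier and use of strand, so antisense and overlapping genes may share reads.

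Names and positions (1-based) came from GENCODE M21 on GRCm38 by unversioned identifier, and 42462 of 43346 mouse genes matched. TMM scaling (edgeR 4.0.16 in R 4.3.3) of rounded expected counts used the 14870 genes at a mean TPM of 1 or more. A ratio is replicate 2 divided by replicate 1, with 0.5 added to both counts. Exact 95% binomial intervals used Python 3.11.15 and scipy 1.17.1. They cover counting error only, and no source used here mentions molecular identifiers. With 1 library on each side there is no test. The ratio and interval code was tested on simulated data. A 0 count is read as up to 3 counts. Depth was 33601136 and 34535168 expected counts.

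The members and the 10 further lists were chosen with earlier results of these data known. Named were all 40 members, in each further list the 3 genes with the highest mean TPM and those at least 2-fold apart, and the 12 protein-coding genes outside the list with the lowest ratio (mean TPM of 1 or more, mean count of at least 50, not on the Y chromosome). Of the genes these rules name, 1 is not reported here. Defining markers at or near 0 were named after their values were seen. Alternatives were scaling by total mouse gene counts, DESeq2 1.42.0 size factors or spike-in counts, deposited TPM, posterior means, other added counts, other level filters, and leaving out each library. Promoter windows came from RefSeq on GRCm38.p6.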

Additional observations from a re-analysis of the deposited data

How the results depend on the processing

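Every setting listed in the methods was run, and 5 of 63 recomputed values moved past the limit set for them, beside the summed level given last. Scaling by spike-in counts took the median log2 ratio of the calcium handling members from -0.14 to 0.205 and that of the regulators, which rests on Gata4 alone, from -0.39 to -0.046, because it adds 0.34 to every log2 ratio. With that scaling 18 of 28 members were at least 2-fold lower, in place of 20. Counting members with any count took the regulators at least 2-fold lower from 0 of 1 to 4 of 6, and their median to -1.79. With a mean count of at least 50 as the filter, added after seeing the data, the regulators at least 2-fold lower were 2 of 3, all members 19 of 28 and sarcomere members 13 of 16. The summed sarcomere level ranged from 170.1 TPM without replicate 1 to 809.6 TPM without replicate 2. No paired analysis was possible because there is 1 group. Depth limits the members with under about 20 counts in replicate 2, whose intervals are wide, and with 2 libraries the spread between animals is not known.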
